A study of Homo sapiens with 10 samples.

Results

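The 7 genes described here encode NCOR1, TBL1XR1, TBL1X, GPS2 and HDAC3, subunits of the NCoR corepressor, and ANKRD11 and ANKRD12, a pair of ankyrin repeat proteins that bind nuclear receptor coactivators. They were taken by symbol from the 57993 symbols of the deposited tables. All 7 were found, and all 7 passed the filter on low values among 17779 genes tested. RNA was sequenced from 10 libraries of HCT116, a human colorectal carcinoma cell line. Cells labelled KDM5A-/- carried a plasmid for a mutant KDM5A (2 libraries), a plasmid for wild-type KDM5A (3) or an empty vector (3), and parental cells carried the empty vector (2). Positive cells were sorted by GFP 24 hours after transfection. The mutation is not named in the labels, and the title of the series concerns methylation of KDM5A by the methyltransferase SMYD2. Per the labels the knockout line is a purchased clone kept in G418, which the parental culture did not hold, so genotype, clone and G418 cannot be told apart in any comparison of knockout with parental cells. The labels do not say whether replicate libraries are separate cultures. A p-value here therefore reflects the spread of these libraries alone, which may be technical. The members were proposed with differences between the mutant and the wild-type libraries already known, so for every comparison that uses those libraries their values are a description, and calls there are counted only as a description, with no p-value for a single member.

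NCoR is a large repressor complex that unliganded nuclear receptors and other DNA-bound factors bring to promoters and enhancers. NCOR1 is a scaffold of the complex, and its deacetylase activating domain switches on HDAC3, which removes acetyl groups from histones. The WD40 proteins TBL1X and TBL1XR1 hold the complex on chromatin and take part in its exchange for coactivators, and GPS2 is a small subunit of the complex. ANKRD11 and ANKRD12 bind the p160 coactivators and recruit histone deacetylases to them, and loss of ANKRD11 in people causes KBG syndrome. KDM5A is a demethylase of lysine 4 on histone H3 and is found with SIN3 and NuRD deacetylase complexes. In mouse intestinal epithelium HDAC3 is known to be needed for the barrier and for the response to the gut flora.

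Promoter sequence is shown for TBL1XR1, ANKRD11 and ANKRD12, the members furthest below and above the wild-type libraries on the log2 scale, because KDM5A acts at promoters and its ARID domain has been described to bind the motif CCGCCC. The sequences are from RefSeq on GRCh38.p14, run 5′ to 3′ on the strand of the gene and end at the base before its annotated start. They are chr3:177197483-177197732 (minus strand) for TBL1XR1, chr16:89490562-89490718 (minus strand) for ANKRD11 and chr18:9137313-9137562 (plus strand) for ANKRD12. The ANKRD11 stretch is cut to 157 of 250 bases, where an exon of SPG7 on the opposite strand begins. Capitals mark CCGCCC and its reverse complement GGGCGG, which is also the core of the GC box that Sp1 binds.
TBL1XR1: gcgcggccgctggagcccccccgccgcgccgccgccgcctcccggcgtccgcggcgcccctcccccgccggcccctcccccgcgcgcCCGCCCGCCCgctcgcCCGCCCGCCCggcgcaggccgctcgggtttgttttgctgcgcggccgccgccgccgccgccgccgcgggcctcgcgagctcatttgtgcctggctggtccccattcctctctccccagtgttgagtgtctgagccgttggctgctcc
ANKRD11: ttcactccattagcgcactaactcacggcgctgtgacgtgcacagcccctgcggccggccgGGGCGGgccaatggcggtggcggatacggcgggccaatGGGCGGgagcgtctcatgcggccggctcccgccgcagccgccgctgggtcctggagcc
ANKRD12: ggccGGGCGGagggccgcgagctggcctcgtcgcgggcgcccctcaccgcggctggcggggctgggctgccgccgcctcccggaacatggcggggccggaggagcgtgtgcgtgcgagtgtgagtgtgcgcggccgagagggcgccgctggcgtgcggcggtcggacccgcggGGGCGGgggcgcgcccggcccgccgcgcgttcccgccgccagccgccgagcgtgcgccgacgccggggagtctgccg
The motif occurred 4 times in the TBL1XR1 window, as overlapping pairs, and 2 times each in those of ANKRD11 and ANKRD12. The ANKRD11 stretch also held CCAAT, the motif of NF-Y, 2 times. The 250 bases before the start of HDAC3 held CCGCCC or its reverse complement 1 time, those of GPS2 0 times, those of the listed starts of TBL1X 0 and 2 times and both listed starts of NCOR1 0 times. A second listed start of TBL1XR1 had 3 matches. The ANKRD12 window lies inside the locus that the files give for the gene, downstream of its first base. Of all 35116 annotated windows of 250 bases, 42.6% held CCGCCC and 32.0% held CCAAT on either strand. GC content was 81.2% for TBL1XR1, 70.8% for the full ANKRD11 window and 83.6% for ANKRD12, against a median of 58% over all windows (10th to 90th percentile, 38% to 75.2%). These matches describe the letters only, and members on both sides of the wild-type level held the motif.

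Values below are the deposited FPKM (fragments per transcript length and library total) put back on the linear scale and divided by 1 factor per library, so that the median gene is level between libraries. They are per length, and the number of reads behind them is unknown. In whole cells, less RNA per cell and fewer cells with the RNA cannot be told apart. The level of KDM5A showed which libraries carried a KDM5A plasmid. It does not identify the form on the plasmid, and it did not set knockout apart from parental cells. KDM5A had scaled values of 23346 and 22816 with the mutant plasmid and 13452 to 16237 with the wild-type plasmid. It had 12.2 to 15.3 in knockout cells with empty vector and 13.3 and 17.7 in parental cells. Both mutant libraries lay above every wild-type library in KDM5A level. The form of KDM5A and its level therefore cannot be told apart in any comparison of mutant with wild-type libraries. The ranges of the knockout and parental cells with empty vector overlapped, and the tables do not show where the gene was disrupted. The mutant libraries held 90.5% and 90.5% of their total in protein-coding genes, parental library 2 held 89.7% and the other 7 held 92.6% to 92.9%. Ribosomal protein genes took 15.04% and 15.58% in the mutant libraries, 15.5% in parental library 2 and 12.5% to 13.8% in the other 7. Of 12 markers of colorectal epithelium, 7 were at 1 or more in every library of each group, with VIL1, CDX1 and LGALS4 below 1 in all. The list summed to 5244 and 5743 with mutant, 4509 to 4757 with wild-type KDM5A, 4253 to 4300 with empty vector and 3930 to 4500 in parental cells. Of 16 markers of other cell types, 3 were at 1 or more in every library of each group. The sum of the 16 was 25.1 to 36.4 over all libraries, and the leukocyte marker PTPRC was below 1 throughout. The 3 were COL1A1, HBA1 and CD14. COL1A1 was at 13.497 and 15.007 with mutant KDM5A, 17.27 to 24.25 with wild-type KDM5A and 20.18 to 28.72 with empty vector. COL1A1 had 22.33 and 14.95 in parental cells. HBA1 was at 14.14 and 3.563 with mutant KDM5A and 4.088 to 7.152 with wild-type KDM5A. HBA1 had 2.336 to 4.224 with empty vector, and 2.857 and 6.302 in parental cells. The parts of COL1A1 and HBA1 in the results were not tested. The monocyte marker CD14 was at 4.05 and 6.41 with mutant and 3.87 to 4.79 with wild-type KDM5A, against 1.17 to 1.88 with empty vector and 1.81 and 1.94 in parental cells, and its part in the results was not tested.

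ANKRD12 was the member furthest from its wild-type level, and it lay in the opposite direction to its paralog ANKRD11. ANKRD12 (ENSG00000101745, GRCh38 chromosome 18, 9136228 to 9285985, plus strand) had scaled values of 17.3 and 13.6 with mutant KDM5A and 7.40, 5.98 and 7.78 with wild-type KDM5A. ANKRD12 had 8.74, 8.83 and 9.19 with empty vector, and 7.01 and 6.92 in parental cells. Both mutant libraries were above all 8 others. The share of all genes with both mutant libraries outside the range of the other 8 was not counted. For any member such a placing is therefore a description only. The mean was 15.5 ± 2.57 with mutant KDM5A and 7.05 ± 0.951 with wild-type KDM5A (SD, n = 2 and 3), a ratio of 2.19 and a log2 fold change of 1.03 ± 0.13 (SE). With mutant library 1 left out the log2 fold change was 0.87, and without mutant library 2 it was 1.19. ANKRD11 (ENSG00000167522, chromosome 16, 89267627 to 89490561, minus strand) had the highest level per length of the 7 members in each library, at 148.5 and 145.1 with mutant KDM5A and 173.1, 180.8 and 174.0 with wild-type KDM5A. ANKRD11 had 168.4, 184.7 and 192.4 with empty vector, and 151.9 and 143.0 in parental cells. Its mutant libraries were below every library of the other 2 knockout groups and within the range of the parental ones. The mean was 146.8 ± 2.45 with mutant and 176.0 ± 4.19 with wild-type KDM5A, 83.4% of the wild-type level, and the log2 fold change was -0.26 ± 0.06 (SE).

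Within each library, ANKRD11 was 8.59 and 10.6 times the level of ANKRD12 with mutant KDM5A, 23.4, 30.2 and 22.4 times with wild-type KDM5A, 19.3, 20.9 and 20.9 times with empty vector, and 21.7 and 20.7 times in parental cells. This ratio needs no scaling between libraries. Both mutant libraries stood below 11 and the other 8 above 19.

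**Figure D1:**
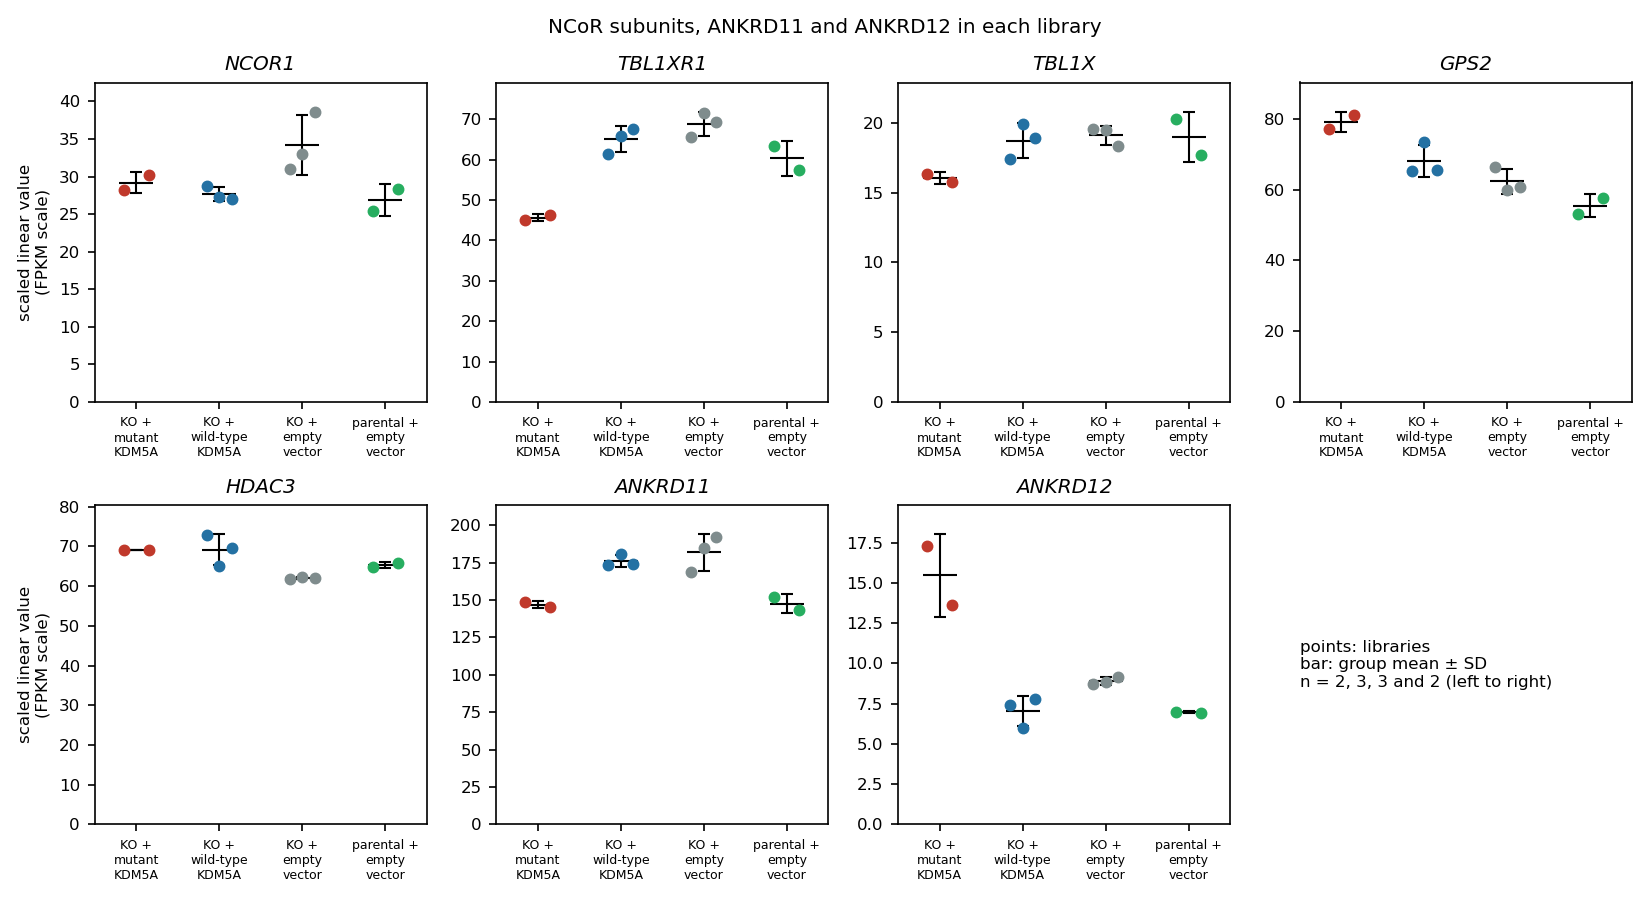
Scaled linear values (FPKM scale, y axes from 0) of the 7 members in each of the 10 libraries; points are libraries and bars the group mean ± SD, from left to right mutant KDM5A, wild-type KDM5A and empty vector in knockout cells and empty vector in parental cells. ANKRD12 is at 17.3 and 13.6 in the mutant libraries and at 5.98 to 9.19 in the other 8, while TBL1XR1 is at 45.0 and 46.3 in the mutant libraries and at 57.3 to 71.6 in the other 8.

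Among the NCoR subunits, the WD40 adaptors were lower and GPS2 higher with mutant than with wild-type KDM5A, while the scaffold NCOR1 and the enzyme HDAC3 overlapped. TBL1XR1 (ENSG00000177565, chromosome 3, 177019355 to 177197473, minus strand) had scaled values of 45.0 and 46.3 with mutant KDM5A and 61.4, 65.9 and 67.7 with wild-type KDM5A. TBL1XR1 had 65.5, 71.6 and 69.3 with empty vector, and 63.4 and 57.3 in parental cells. The mutant libraries were below all 8 others, and the other groups overlapped their neighbours in order of level. The mean was 45.6 ± 0.895 with mutant and 65.0 ± 3.23 with wild-type KDM5A (SD, n = 2 and 3), 70.2% of the wild-type level, with a log2 fold change of -0.50 ± 0.07 (SE). Its X-linked paralog TBL1X (ENSG00000101849, chromosome X, 9463295 to 9719743, plus strand) had 16.4 and 15.8 with mutant KDM5A and 17.4, 19.9 and 18.9 with wild-type KDM5A. TBL1X had 19.5, 19.5 and 18.4 with empty vector, and 20.3 and 17.7 in parental cells. The mutant libraries were again below the other 8, by a smaller margin, at 85.7% of the wild-type mean and a log2 fold change of -0.21 ± 0.09 (SE). The ratio of TBL1XR1 to TBL1X was 2.75 and 2.93 in the mutant libraries, 3.31 to 3.58 in the wild-type, 3.35 to 3.78 in the empty-vector and 3.13 and 3.23 in the parental libraries.

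GPS2 (ENSG00000132522, chromosome 17, 7311324 to 7315564, minus strand) had scaled values of 77.2 and 81.3 with mutant KDM5A and 65.3, 73.5 and 65.6 with wild-type KDM5A. GPS2 had 66.5, 59.8 and 60.9 with empty vector, and 53.1 and 57.8 in parental cells. The mutant libraries were above the other 8, at 79.2 ± 2.90 against 68.1 ± 4.62 with wild-type KDM5A (SD, n = 2 and 3), with a ratio of 1.16 and a log2 fold change of 0.22 ± 0.08 (SE). On the values as deposited the fold change was -0.01, above the median of all genes there (-0.20). The translation factor gene EIF5A overlaps the end of GPS2 on the opposite strand, and the strand setting of the counting is not given in the sources used here, so reads of the overlap cannot be assigned. EIF5A had 1448 and 1385 with mutant KDM5A, 1164 to 1208 with wild-type KDM5A, 989.6 to 1017 with empty vector and 916.8 and 1049 in parental cells, and its part in the GPS2 values was not tested. The ratio of GPS2 to TBL1XR1 was 1.72 and 1.76 in the mutant libraries, 0.969 to 1.11 in the wild-type, 0.835 to 1.01 in the empty-vector and 0.838 and 1.01 in the parental libraries, with no overlap between the mutant and any other group. Fold changes of mutant over wild-type KDM5A moved with gene length, as given below. That trend was 0.03 at the length of GPS2 and -0.08 at that of TBL1XR1. The parts of length and of EIF5A in this ratio were not tested.

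HDAC3 (ENSG00000171720, chromosome 5, 141620876 to 141636870, minus strand) had scaled values of 69.0 and 69.1 with mutant KDM5A and 72.8, 65.0 and 69.7 with wild-type KDM5A. HDAC3 had 61.8, 62.2 and 62.1 with empty vector, and 64.8 and 65.8 in parental cells. Mutant and wild-type means were 69.1 and 69.2, a log2 fold change of 0.00 ± 0.06 (SE). NCOR1 (ENSG00000141027, chromosome 17, 16029157 to 16218185, minus strand) had 28.2 and 30.2 with mutant KDM5A and 28.77, 27.24 and 27.03 with wild-type KDM5A. NCOR1 had 31.0, 33.0 and 38.7 with empty vector, and 25.4 and 28.3 in parental cells. Mutant and wild-type libraries overlapped, with means of 29.2 ± 1.41 with mutant and 27.7 ± 0.951 with wild-type KDM5A (SD, n = 2 and 3) and a log2 fold change of 0.07 ± 0.10 (SE). On the values as deposited it turned to -0.14, above the median of all genes there. The opposite-strand genes TTC19 and PIGL overlap the ends of NCOR1 with highest values of 64.2 and 36.5, and 2 NCOR1 pseudogenes reached 4.80 (NCOR1P1, mutant library 2) and 2.83 (NCOR1P2, wild-type library 3), so part of its reads cannot be assigned. The ratio of HDAC3 to TBL1XR1 was 1.53 and 1.49 in the mutant libraries, 0.985 to 1.19 in the wild-type, 0.869 to 0.944 in the empty-vector and 1.02 and 1.15 in the parental libraries. The part of gene length in this ratio was not tested either.

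**Figure D2:**
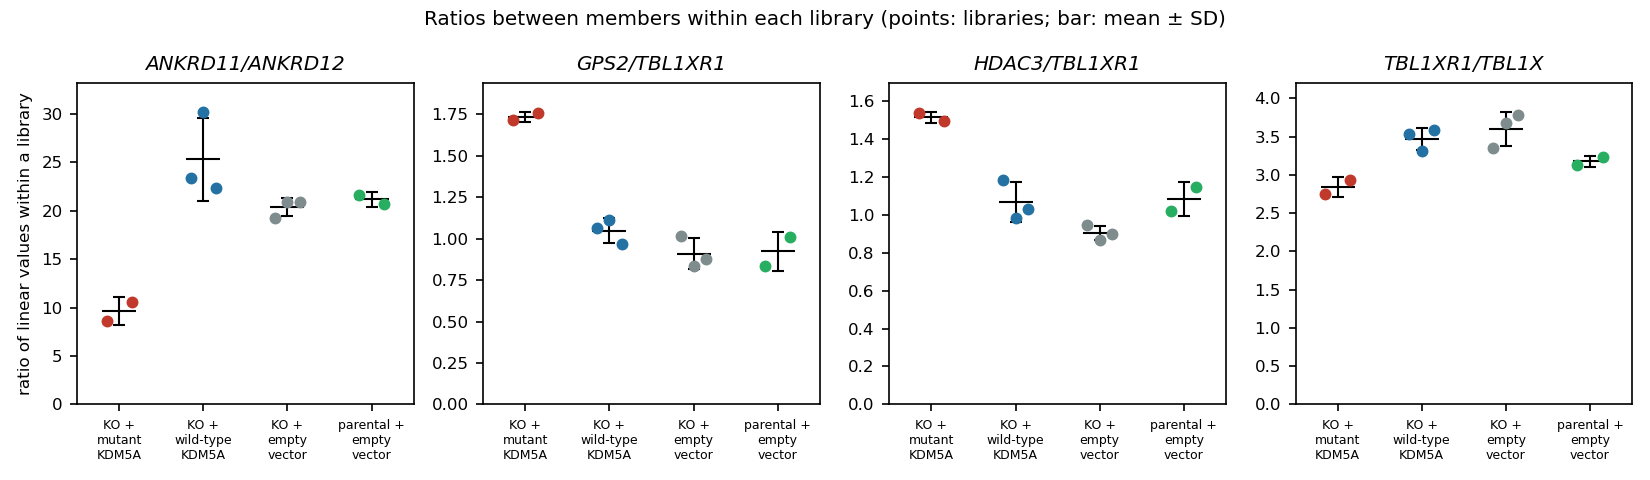
Ratios of linear values within a library (y axes from 0), for ANKRD11 over ANKRD12, GPS2 over TBL1XR1, HDAC3 over TBL1XR1 and TBL1XR1 over TBL1X; points are libraries, bars the mean ± SD, and groups run from mutant KDM5A on the left to parental cells on the right. ANKRD11 over ANKRD12 averages 9.61 in the mutant, 25.3 in the wild-type, 20.4 in the empty-vector and 21.2 in the parental libraries, and GPS2 over TBL1XR1 averages 1.74 in the mutant, 1.05 in the wild-type, 0.909 in the empty-vector and 0.923 in the parental libraries.

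CORO2A, a coronin family protein described in the complex, was not among the members. It had scaled values of 7.28 and 6.44 with mutant KDM5A and 7.39, 8.13 and 7.57 with wild-type KDM5A. CORO2A had 6.34, 6.60 and 6.49 with empty vector, and 8.55 and 7.63 in parental cells. The wild-type libraries were above those with empty vector, and the empty-vector libraries were below the parental ones. Limma called CORO2A in none of the 4 comparisons. The log2 fold change was -0.15 ± 0.10 (SE) in mutant against wild-type KDM5A, with a Benjamini-Hochberg adjusted p of 0.452 in limma. In knockout against parental cells it was -0.28 ± 0.10 (SE, adjusted p = 0.125 in limma).

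Over all genes, limma called 10 of 17779 (0.0562%, with 0.0225% lower and 0.0337% higher) between mutant and wild-type KDM5A at an adjusted p under 0.05. Of the 7 members 1, ANKRD12, was among them. In a fit of only the libraries compared the 1 member called was TBL1XR1 instead. This count was 3 (ANKRD11, ANKRD12 and TBL1XR1) with 1 or the other parental library left out and 1 without mutant library 2. It was 0 without any 1 of the other 7 libraries or with the protein-coding share as a covariate. That share itself separates the mutant from the wild-type libraries, so nothing is read from calls lost with it. Ranges did not overlap for 5 of the 7 members, 3 lower and 2 higher, against 38.8% of all genes (19.4% lower and 19.5% higher). Since the members were chosen on this contrast, nothing is read from these shares.

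Fold changes of mutant over wild-type KDM5A moved with gene length. Protein-coding genes with under 5000 exonic bases had a median log2 fold change of 0.03 (6580 genes), those with 5000 to under 10000 bases -0.04 (5022) and those with 10000 or more -0.09 (1463 genes, 10th to 90th percentile -0.34 to 0.21). The members are mostly long, at 19538 exonic bases for ANKRD11, 15404 for NCOR1, 12252 for ANKRD12, 11603 for TBL1XR1, 9092 for TBL1X, 4631 for HDAC3 and 3089 for GPS2. The trend at their lengths was -0.10 for ANKRD11 and -0.08 for TBL1XR1 and ANKRD12. With the trend of each library removed, the log2 fold change was -0.16 for ANKRD11, -0.42 for TBL1XR1, -0.14 for TBL1X, 0.18 for GPS2 and 1.11 for ANKRD12. ANKRD12 thus lay against the trend of genes of its length, and the ANKRD11 value moved by more than 1.5 times.

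**Figure D3:**
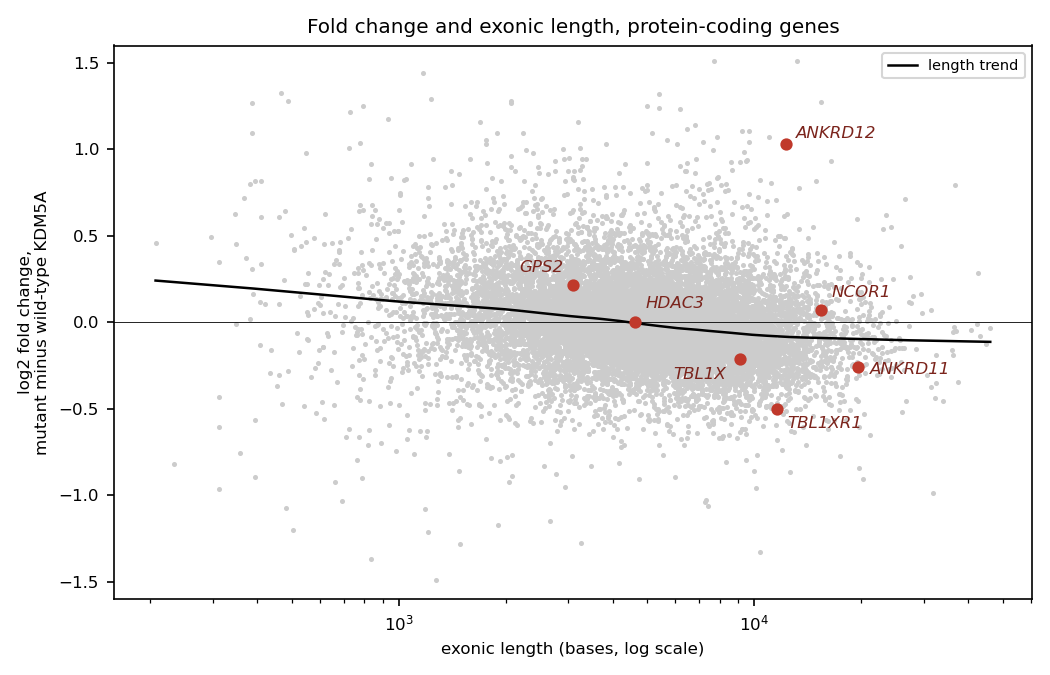
Log2 fold change of mutant over wild-type KDM5A (y axis) against exonic length in bases (log scale) for 13065 protein-coding genes in grey, with the smooth length trend as a line and the 7 members in red; 7 genes outside the plotted range are not drawn. The line falls with length, ANKRD12 at 1.03 stands far above it and TBL1XR1 at -0.50 below it.

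Against empty vector in the same knockout cells, TBL1XR1, ANKRD11 and TBL1X were lower and ANKRD12 and GPS2 higher in the mutant libraries. These 2 comparisons share the empty-vector libraries, so their values are set side by side only. TBL1XR1 had a log2 fold change of -0.58 ± 0.07 (SE) with mutant KDM5A, at 66.3% of the empty-vector mean, and of -0.08 ± 0.06 with wild-type KDM5A. ANKRD11 had -0.31 ± 0.06 with mutant and -0.05 ± 0.06 with wild-type KDM5A. TBL1X had -0.24 ± 0.09 with mutant and -0.03 ± 0.08 with wild-type KDM5A. The lower levels of these 3 genes were thus in the mutant libraries, while the wild-type libraries overlapped empty vector for each. With the length trend removed the values with mutant KDM5A were -0.47 for TBL1XR1, -0.15 for ANKRD11 and -0.16 for TBL1X.

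ANKRD12 was 1.73 times its empty-vector mean with mutant KDM5A, a log2 fold change of 0.72 ± 0.13 (SE), and below it with wild-type KDM5A, at -0.31 ± 0.12, with no overlap in either case. GPS2 had 0.34 ± 0.08 with mutant and 0.12 ± 0.07 with wild-type KDM5A. HDAC3 and NCOR1 lay on the same side of empty vector with both plasmids. HDAC3 had 0.15 ± 0.06 with mutant and 0.15 ± 0.05 with wild-type KDM5A. NCOR1 had -0.22 ± 0.10 with mutant and -0.29 ± 0.09 with wild-type KDM5A, and -0.08 with mutant KDM5A with the length trend removed. For both genes the plasmid libraries did not overlap those with empty vector. On the values as deposited the HDAC3 value with mutant KDM5A turned to -0.18, where the median of all genes was -0.30.

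Limma called 4 members with mutant KDM5A against empty vector, TBL1XR1 and ANKRD11 lower and GPS2 and ANKRD12 higher, where it called 16.5% of all genes (7.05% lower and 9.48% higher). With 1 library left out the count was 1 to 4. TBL1XR1 alone was called without mutant library 1, TBL1XR1 and ANKRD12 without mutant library 2 or empty-vector library 2 or 3. All 4 were called without any 1 of the other 6. On the values as deposited 5 members were called, all but GPS2 and HDAC3, and GPS2 had a log2 fold change of 0.0045. The ANKRD11 call was lost with the length trend removed and in a fit of only the libraries compared. No member was called with the protein-coding share as a covariate, where the log2 fold change was -0.46 for TBL1XR1 and 0.72 for ANKRD12. Among knockout libraries that share was 90.5% in both mutant ones and 92.6% to 92.9% in the others. The covariate thus nearly follows the mutant group, and limma called 138 of all genes with it in place of 2939. Nothing is read from calls lost with it. For each of the 7 members the ranges did not overlap, 4 lower and 3 higher, against 46.9% of all genes (23.6% lower and 23.3% higher). With wild-type KDM5A against empty vector limma called 0 members and 4.54% of all genes (2.02% lower and 2.52% higher). At an unadjusted p under 0.05 there were 3 members (NCOR1, HDAC3 and ANKRD12) and 20.5% of all genes, and the ranges of the same 3 did not overlap with empty vector, 2 lower and 1 higher, against 32.6% of all genes (16.2% lower and 16.4% higher).

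**Figure D4:**
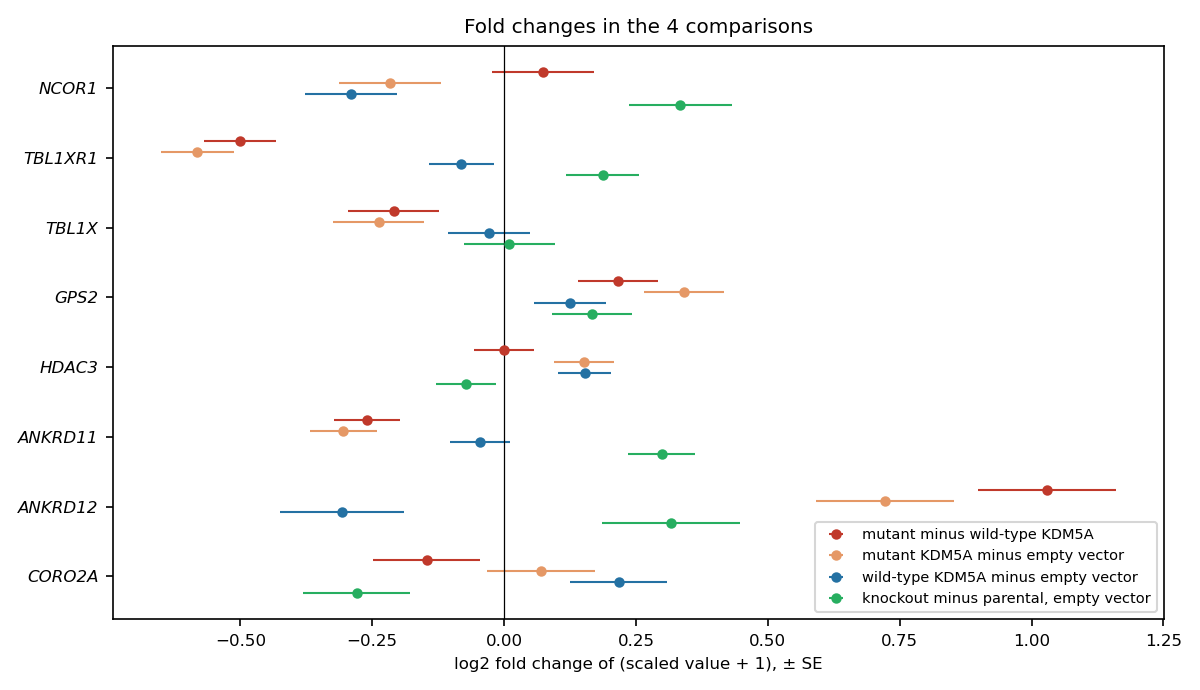
Log2 fold changes (x axis, of scaled value + 1) with their SE for the 7 members and for CORO2A, in the 4 comparisons named in the legend. The mutant minus wild-type and the mutant minus empty-vector points of TBL1XR1 (-0.50 and -0.58) and ANKRD12 (1.03 and 0.72) lie far from 0, while the wild-type minus empty-vector points of the 7 members stay between -0.31 and 0.15.

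Knockout against parental cells, both with empty vector, compares no library of the contrast on which the members were chosen. It shares its knockout libraries with the comparisons of either plasmid against empty vector, where they count with the opposite sign. A high level in those libraries thus gives a rise here and a fall there together. The fit still took its spread from all 10 libraries, and earlier results of these data were known when the members were chosen. The p-values here are therefore not an independent test. ANKRD11 rose in the knockout cells, to 181.8 ± 12.2 against 147.5 ± 6.30 in parental cells (SD, n = 3 and 2), a ratio of 1.23 and a log2 fold change of 0.30 ± 0.06 (SE) with an adjusted p of 0.0224 in limma, higher in 3 of 3 knockout libraries. The mutant libraries, at a mean of 146.8, lay within the range of the parental ones. The ANKRD11 call was lost in limma without parental library 2 (0.26, adjusted p = 0.115), empty-vector library 2 (adjusted p = 0.0739) or empty-vector library 3 (adjusted p = 0.0752). It was also lost in limma with the protein-coding share as a covariate (adjusted p = 0.123), in a fit of only the libraries compared (adjusted p = 0.0998) and with the replicate block (adjusted p = 0.0928). The adjusted p ran from 0.0164 to 0.123 over 21 alternatives, all of which kept the sign. Parental library 2 is also the one with the lower protein-coding share. NCOR1 averaged 34.2 ± 3.98 in knockout and 26.9 ± 2.10 in parental cells, a log2 fold change of 0.33 ± 0.10 (SE) with an adjusted p of 0.0672 in limma that missed the threshold.

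The other 5 members did not pass. ANKRD12 had a log2 fold change of 0.32 ± 0.13 (SE, adjusted p = 0.167 in limma), with values of 8.74 to 9.19 in knockout and 7.01 and 6.92 in parental cells. TBL1XR1 had 0.19 ± 0.07 (adjusted p = 0.129 in limma) and GPS2 0.17 ± 0.08 (adjusted p = 0.204). TBL1X had 0.01 ± 0.09 (adjusted p = 0.962) and HDAC3 -0.07 ± 0.06 (adjusted p = 0.466 in limma). Limma thus called 1 of 7 members, against 8.94% of all genes (4.09% lower and 4.84% higher). Ranges did not overlap for 6 of 7, 5 of them higher in knockout cells, against 42.4% of all genes (21.9% higher and 20.6% lower).

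By the root mean square difference of centred log2 values over the 10 libraries, a pattern close to that of each member was sought among 10428 protein-coding genes with a mean of at least 5. The genes nearest to TBL1XR1 were C14orf79 (0.06) and HIVEP2 (0.07), to ANKRD11 PPP2R5E (0.05) and ATXN2L (0.05), to TBL1X SCARA3 (0.05) and ZKSCAN1 (0.05), and to GPS2 TXNL4A (0.04) and NUDC (0.05). HDAC3 was nearest to PINK1 (0.04) and AP1M1 (0.04), and NCOR1 to BIRC6 (0.07) and MRPL10 (0.07). ANKRD12 was nearest to CCDC58 (0.20) and CCDC150 (0.22), with log2 fold changes of mutant over wild-type KDM5A of 0.62 and 0.74. These distances grow with a gene's own spread, and divided by the member's SD over the libraries the nearest gene lay at 0.47 for ANKRD12 and 0.23 to 0.51 for the other 6. Among the members the closest pairs were TBL1X with ANKRD11 (0.13) and TBL1XR1 with ANKRD11 or TBL1X (0.14 each), and the most distant was TBL1XR1 with ANKRD12 (0.59). These distances are descriptions over the same 10 libraries, which share their scaling and also differ in make-up.

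Related genes were counted in 8 lists around the complex, which were chosen with earlier results of these data known. Genes were named from them by smallest p, so their adjusted p-values are a description and not an independent test. Limma called 0 of the 140 tested genes of the lists between mutant and wild-type KDM5A, with 33 at an unadjusted p under 0.05 (23.6%, against 20.2% of all genes). The count per list there was 0 to 2 with 1 library left out and 0 to 7 on the values as deposited. With mutant KDM5A against empty vector 37 of the 140 were called (26.4%, against 16.5% of all genes), with wild-type KDM5A 9 (6.43%, against 4.54%) and in knockout against parental cells 18 (12.9%, against 8.94%). In a fit of only the 11607 genes with a mean of at least 5, limma called 3032, 945 and 1690 in that order. The shares of all genes are thus not matched to the lists in level, and no excess is read from them. The share per list with mutant KDM5A ran from 16.2% of the other ANKRD genes to 46.7% of the CoREST, CtBP and Groucho list, and no list was tested against the rest. Among the transcription factors that recruit NCoR, both REV-ERB receptors fell with either plasmid against empty vector. NR1D1 (REV-ERB alpha), a heme-binding receptor that represses clock genes through NCoR and HDAC3, fell to 85.2 ± 0.233 with mutant KDM5A (n = 2) and 97.9 ± 1.66 with wild-type KDM5A (n = 3), against 152.9 ± 2.78 with empty vector (SD, n = 3), with log2 fold changes of -0.84 with mutant (adjusted p = 6.90e-05 in limma) and -0.64 with wild-type KDM5A (adjusted p = 0.000165 in limma). Its paralog NR1D2 (REV-ERB beta) fell to 34.1 ± 3.72 with mutant and 41.6 ± 1.03 with wild-type KDM5A, against 60.2 ± 1.14 with empty vector, by 0.81 with mutant (adjusted p = 0.000811 in limma) and by 0.53 with wild-type KDM5A on the log2 scale (adjusted p = 0.00541 in limma). Both calls held in each comparison whichever library was left out and with the protein-coding share as a covariate, and the comparisons share the empty-vector libraries. Of 19 tested factors, 0 rose and 4 fell with mutant KDM5A, among them the retinoic acid receptor RARG (-0.27). With wild-type KDM5A 1 rose and 3 fell, among them the orphan receptor NR2F1 (-0.40). The RARG call was lost without mutant library 1 or empty-vector library 2 or 3, and that of NR2F1 without any 1 of the 6 libraries compared. In knockout against parental cells 0 rose and 2 fell. The fatty acid receptor PPARD had 26.4 ± 0.317 in knockout and 36.6 ± 4.95 in parental cells (log2 fold change -0.45, adjusted p = 0.0120 in limma). The thyroid hormone receptor THRB was at 0.295 in knockout and 2.26 in parental cells, a call lost without any 1 empty-vector or wild-type library or parental library 1.

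Of the other corepressor lists, that of CoREST, CtBP and Groucho had the most calls with mutant KDM5A against empty vector. Of its 15 genes, 0 rose and 7 fell with mutant KDM5A against empty vector, with a list median of -0.23 beside -0.01 for all genes. Fold changes in this comparison also moved with gene length. The median was 0.05 for protein-coding genes under 5000 exonic bases, -0.05 from 5000 to under 10000 and -0.13 for 10000 or more. The part of length in the list median was not tested. The Groucho family gene TLE2 had 16.6 ± 3.02 with mutant KDM5A and 28.7 ± 3.24 with empty vector (log2 fold change -0.76), ZMYM3 had 10.04 ± 0.490 with mutant KDM5A and 15.68 ± 0.421 with empty vector (-0.60) and GSE1 38.0 ± 1.34 with mutant KDM5A and 53.5 ± 4.38 with empty vector (-0.48), all under an adjusted p of 0.05 in limma whichever library was left out. With the protein-coding share as a covariate 0 of the 15 were called, and on the values as deposited 13. In knockout against parental cells 2 of these 15 fell, the CoREST paralog RCOR2, at 6.26 ± 0.327 in knockout and 12.3 ± 1.14 in parental cells (log2 fold change -0.87), and HMG20B (-0.30), whose call was lost without any 1 empty-vector library or parental library 2. With wild-type KDM5A against empty vector limma called 0 of the 15, with 7 at an unadjusted p under 0.05.

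Of 10 other histone deacetylases, 2 rose and 2 fell with mutant KDM5A against empty vector and limma called 0 in the other comparisons. At an unadjusted p under 0.05 those were 4 in mutant against wild-type KDM5A, 1 in wild-type KDM5A against empty vector and 2 in knockout against parental cells. HDAC1, a deacetylase of the SIN3, NuRD and CoREST complexes, averaged 220.2 ± 6.93 with mutant KDM5A and 189.5 ± 1.89 with empty vector, a log2 fold change of 0.22 that turned to -0.12 on the values as deposited. HDAC10 (-0.43) and HDAC7 (-0.33) fell. All 3 of these calls were lost without mutant library 1 or empty-vector library 2 or 3, and that of HDAC7 also without mutant library 2 or wild-type library 1. Of 16 SIN3 complex genes 4 rose and 1 fell with mutant KDM5A against empty vector. BRMS1 (0.44, and 0.11 on the values as deposited) was called whichever library was left out. BRMS1L (0.50) was lost without mutant library 1 or empty-vector library 2 or 3, and ARID4B (-0.46) without mutant library 1 or 2. SUDS3 rose by 0.31 with wild-type KDM5A, a call lost without any 1 of the 6 libraries compared. The histone chaperone gene RBBP4 fell in knockout against parental cells (165.2 ± 2.82 in knockout and 199.9 ± 1.599 in parental cells, log2 fold change -0.27). Of 11 NuRD genes CDK2AP1 rose (0.37, lost without mutant library 1) and MBD3 fell (-0.26, lost without any 1 of the 8 knockout libraries) with mutant KDM5A. On the values as deposited CDK2AP1 had 0.03. In the other comparisons limma called 0, with 3 at an unadjusted p under 0.05 in mutant against wild-type KDM5A, 1 in wild-type KDM5A against empty vector and 2 in knockout against parental cells.

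On the activating side, nuclear receptor coactivators gave 1 rise and 5 falls among 15 genes with mutant KDM5A against empty vector, 2 rises with wild-type KDM5A, and 4 rises and 1 fall in knockout against parental cells. The arginine methyltransferase gene PRMT1 rose to 465.5 ± 22.2 with mutant and 427.0 ± 11.1 with wild-type KDM5A, against 363.1 ± 1.80 with empty vector. The call with mutant KDM5A (log2 fold change 0.36, and 0.02 on the values as deposited) held whichever library was left out. That with wild-type KDM5A, and that of the methyltransferase gene CARM1 (0.23), were lost without any 1 of the 6 libraries compared. The H3K36 methyltransferase gene NSD1 had -0.55 with mutant KDM5A and the acetyltransferase gene CREBBP -0.37, and both calls were lost without mutant library 1, that of CREBBP also without empty-vector library 3. NRIP1, a receptor-interacting protein that can also repress, had 13.96 ± 0.0843 in knockout and 7.12 ± 0.294 in parental cells, a log2 fold change of 0.88 with an adjusted p of 0.000616 in limma that held whichever library was left out. CREBBP (0.40) and its paralog EP300 (0.35) rose in knockout cells too, and both calls were lost without empty-vector library 2 or 3 or parental library 2. The fall of CREBBP with mutant KDM5A and its rise in knockout cells share the empty-vector knockout libraries.

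Among 17 target genes of receptors that recruit NCoR, 2 rose and 1 fell with mutant KDM5A against empty vector, 1 rose with wild-type KDM5A, and 2 rose and 1 fell in knockout against parental cells. LPCAT3, a phospholipid-remodelling target of LXR, averaged 45.4 ± 2.69 with mutant KDM5A, 47.5 ± 1.96 with wild-type KDM5A, 36.2 ± 1.11 with empty vector and 25.3 ± 0.605 in parental cells. It was called in 3 comparisons. The call for knockout against parental cells (0.50) held whichever library was left out. That for mutant KDM5A (0.32, and -0.02 on the values as deposited) was lost without mutant library 1, and that for wild-type KDM5A (0.38) without empty-vector library 2 or 3 or wild-type library 2. The vitamin D target CYP24A1 rose in knockout cells, to 56.6 ± 5.26 against 30.5 ± 1.24 in parental cells (log2 fold change 0.87), whichever library was left out. The retinoic acid target TGM2 fell there (-0.63), a call lost without any 1 empty-vector library or parental library 2. With mutant KDM5A against empty vector the retinoic acid hydroxylase gene CYP26B1 fell (-0.91), a call lost without mutant library 1 or empty-vector library 2 or 3. NFIL3 had 0.28, which turned to -0.05 on the values as deposited, and its call was lost without any 1 mutant or empty-vector library or wild-type library 1.

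The other genes named ANKRD share ankyrin repeats with ANKRD11 and ANKRD12 and are otherwise diverse. Of 37 tested, 2 rose and 4 fell with mutant KDM5A against empty vector, a share of 16.2% beside 16.5% of all genes. With wild-type KDM5A 1 rose, and 3 rose and 2 fell in knockout against parental cells. ANKRD39 rose to 30.1 ± 1.19 with mutant and 27.2 ± 0.246 with wild-type KDM5A, against 19.2 ± 1.64 with empty vector, whichever library was left out. ANKRD10 was 88.0 ± 0.110 with mutant KDM5A, 109.8 ± 2.86 with empty vector and 85.2 ± 1.92 in parental cells, a fall with mutant KDM5A (-0.32) and a rise in knockout cells (0.36) that both held whichever library was left out. The fall and the rise share the empty-vector knockout libraries and are not separate results. ANKRD13C (-0.42, lost without mutant library 1) fell with mutant KDM5A. In knockout cells ANKRD13B fell (-0.63, lost without parental library 2) and ANKRD1 rose at low levels (1.73 ± 0.301 in knockout and 0.485 ± 0.123 in parental cells), a call lost without empty-vector library 1 or 2 or either parental library. With the protein-coding share as a covariate, NR1D1 and NR1D2 were the only list genes named here that were still called with mutant KDM5A against empty vector. This covariate nearly follows the mutant group, so nothing is read from the calls lost.

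**Figure D5:**
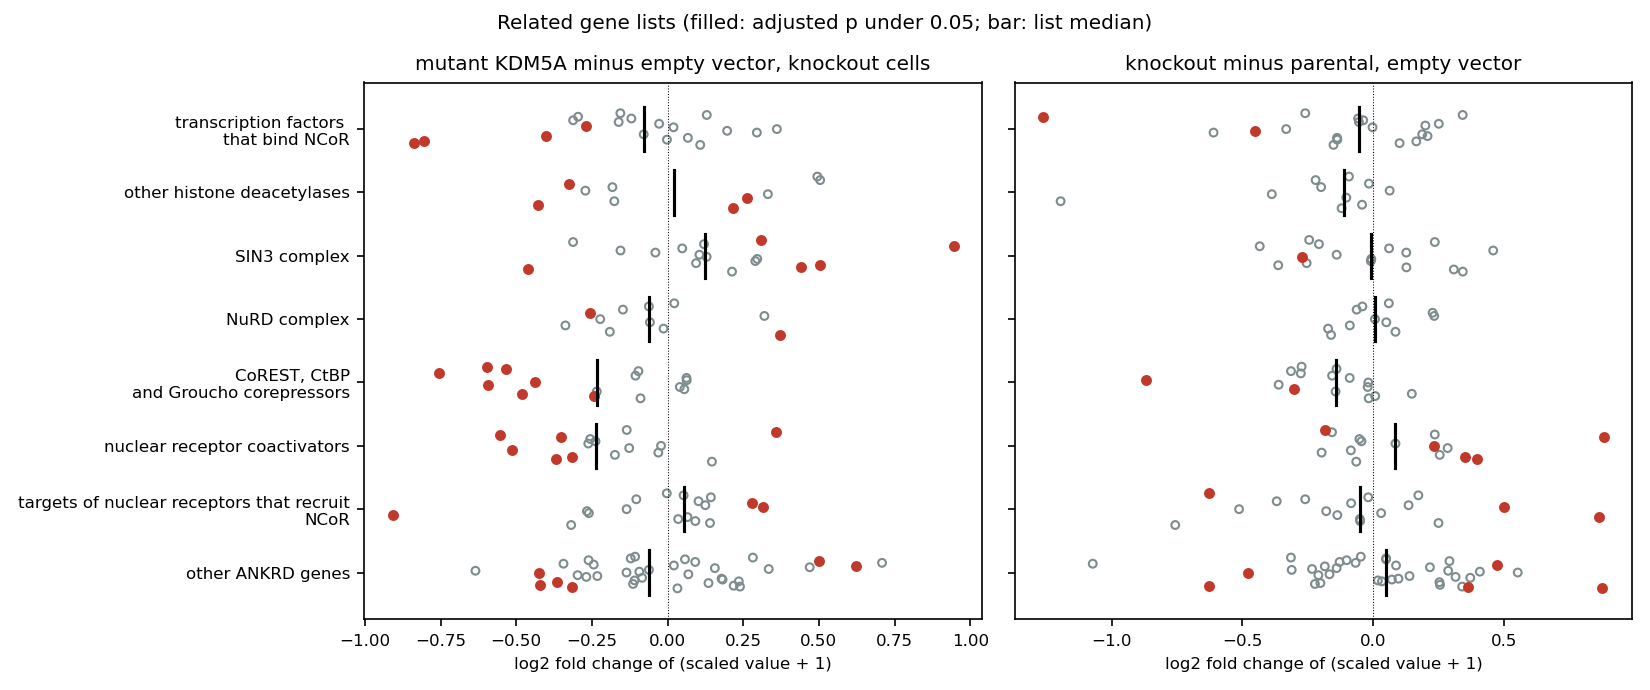
Log2 fold change (x axis, of scaled value + 1) of every tested gene in 8 related lists, for mutant KDM5A minus empty vector in knockout cells (left) and for knockout minus parental cells with empty vector (right); filled points passed an adjusted p of 0.05 in limma, open points did not, and the vertical bar is the list median. The 7 filled points of the CoREST, CtBP and Groucho list all lie below 0 on the left, and the lowest filled points of the NCoR-binding factors there are NR1D1 (-0.84) and NR1D2 (-0.81).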

How the data were processed

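The authors deposited 1 table per library of log2 FPKM values for 60141 loci. The linear values behind the deposited log2 (value + 1) sum to 999975 to 1000008, so every library shares 1 total and the depth behind a value is unknown. Per the submitters' processing notes the build was GRCh38 and the tools were Cufflinks 2.2.1, GATK 4.1.2, Picard and STAR 2.7.1a; roles, annotation release and strand setting are not given in the sources used here.

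Linear values were summed by symbol (GPS2 has 2 rows) and divided by a library factor (median of ratios, 13651 genes at 1 or more throughout). Genes at 1 or more in at least 2 libraries were kept. Limma 3.58.1 in R 4.3.3 (eBayes with trend, two-sided) was fitted on log2(scaled value + 1) over all 10 libraries and 4 groups, with 6 residual and 2.99 prior degrees of freedom and Benjamini-Hochberg adjustment over all genes of a comparison; fold changes on this scale understate those of low genes. On simulated data it recovered 41.79% of changes of 0.5 on the log2 scale for mutant against wild-type KDM5A. In the other 3 comparisons it recovered 56.72% to 62.69% of such changes. Each figure comes from 1 draw of 67 changed genes with a mean log2 value above 2. All groups were simulated with the same spread, so comparisons of 2 with 3 libraries had the same power. The lower figure for mutant against wild-type KDM5A is thus not a lower sensitivity of that comparison. Many changes of 0.5 are missed, and a gene not called may still differ. Lengths and gene types came from GENCODE release 29, matched to 93.4% of loci. Python 3.11.15, numpy 2.4.6, pandas 2.3.3 and matplotlib 3.10.9 did the rest.

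The members and lists were chosen with earlier results of these data known. Named were all members, CORO2A, KDM5A, up to 3 called genes of smallest p per list and comparison, and the 2 genes of nearest pattern per member; EIF5A and the other overlapping genes and pseudogenes were named after their values were seen. A gene that this rule also names is not reported here. The alternatives were quantile normalization or no factor (values as deposited), array weights, a filter at mean 5 or none, pseudocounts of 0.1 and 0.5, only the libraries compared, a replicate block, a length correction, the protein-coding share as a covariate, an adjusted p under 0.1, each library left out and, chosen after seeing the data, GPS2 without its second row.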

Additional observations from a re-analysis of the deposited data

How the results depend on the processing

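The count of members called between mutant and wild-type KDM5A was 1; it was 4 on the values as deposited, 3 at an adjusted p under 0.1, 2 with no filter, 0 with quantile normalization, with a filter at a mean of 5, with array weights and with the protein-coding share as a covariate, and 0 to 3 with 1 library left out. In a fit of only the libraries compared it was also 1, TBL1XR1 in place of ANKRD12. Against empty vector the count with mutant KDM5A was 4, 5 on the values as deposited (NCOR1 and TBL1X added, GPS2 lost), 0 with the covariate and 1 to 4 with 1 library left out. With wild-type KDM5A it was 0, and 1 (NCOR1) on the values as deposited, with array weights and at an adjusted p under 0.1; no library left out changed it, with 0 to 0 called. In knockout against parental cells it was 1, 2 (with NCOR1) on the values as deposited, with a filter at a mean of 5 and at an adjusted p under 0.1, 0 in a fit of only the libraries compared and with the covariate, and 0 to 1 with 1 library left out. The cause of these shifts was not tested. The covariate nearly follows the mutant group among knockout libraries, so nothing is read from calls of mutant KDM5A lost with it. No pairing by replicate number was seen: deviations of same-numbered libraries correlated at -0.09 to 0.05 over 13 pairs and those of different numbers at -0.08 to 0.09 over 24. In a group of 2 libraries the deviations mirror each other, so many of these correlations come with their opposite. The pairs are thus not independent, and a pairing could be missed. With the replicate number as a block the member counts were 0 (mutant against wild-type KDM5A), 2 (mutant against empty vector), 0 (wild-type KDM5A against empty vector) and 0 (knockout against parental), and in that order 1, 1109, 214 and 556 of all genes were called in place of 10, 2939, 807 and 1589.

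Of the single fold changes, TBL1X in knockout against parental cells (0.01) turned to -0.0035 with the length trend removed, -0.0936 with the covariate and, with 1 library left out, lay between -0.0822 and 0.1026, and HDAC3 there (-0.07) turned to 0.0088 on the values as deposited. TBL1XR1, TBL1X, ANKRD11 and ANKRD12 kept their sign between mutant and wild-type KDM5A in all 21 alternatives, from -0.72 to -0.37 for TBL1XR1, -0.42 to -0.05 for TBL1X, -0.48 to -0.16 for ANKRD11 and 0.82 to 1.19 for ANKRD12. Over all genes, the split of higher to lower calls with mutant KDM5A against empty vector was 1685 to 1254, and 458 to 6150 on the values as deposited; between mutant and wild-type KDM5A the calls numbered 10, and 970 with 1 or the other parental library left out. Depth is unknown, so no counting error could be given for any member.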
